A study of Danio rerio with 12 samples.

Results

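The lens crystallin genes of zebrafish were examined in RNA-seq libraries of 4 lines at 6 days post fertilization (dpf). The members were all genes whose symbol marks an alpha crystallin (cryaa or cryab) or a beta A, beta B, gamma M, gamma N or gamma S crystallin. This gave 57 of the 31261 genes counted, namely 3 alpha, 7 beta A, 6 beta B, 35 gamma M, 2 gamma N and 4 gamma S genes. The lines were panx1a-/- and panx1b-/-, each a knock-out made with TALENs (designed DNA-cutting enzymes), the double knock-out of both genes (DKO), and wild-type Tupfel long fin (TL) as the control. Every line had 3 libraries, each of total RNA from a separate pool of whole larvae without treatment. The paper's methods describe fish maintained on a daily cycle of light and dark. The panx1b-/- line goes back to a founder with a small frameshift deletion that truncates the channel protein, and its later generations were crossed again to TL. The effect of a genotype and any remaining difference in background between a line and TL cannot be told apart.

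Crystallins are the soluble proteins that fill the fibre cells of the lens and give it transparency and refractive power. Alpha crystallins belong to the small heat shock proteins and act as chaperones, whereas beta and gamma crystallins are structural proteins built from Greek key folds. Fish lenses hold a large family of methionine-rich gamma M crystallins, which pack densely and which mammals lack. Pannexin 1 proteins, the targets of the knock-outs, form membrane channels that release ATP.

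The 12 libraries held 20581029 to 29259122 counts. Of the 2 genes under the symbol PANX1, ENSDARG00000025285 had 82, 123 and 106 counts in panx1a-/-, 200, 221 and 224 in panx1b-/-, 93, 88 and 98 in DKO, and 292, 249 and 399 in TL. The other, ENSDARG00000014910, had 160, 226 and 211 counts in panx1a-/-, 128, 140 and 163 in panx1b-/-, 79, 83 and 107 in DKO, and 154, 123 and 130 in TL. The sources used here did not say which identifier is panx1a and which is panx1b. Libraries of the same line differed by more than counting noise, so all were kept as separate replicates. Chi-square per degree of freedom was 2.60 between DKO replicates 2 and 3, and 8.89 to 21.3 for all other pairs. Lens fibre markers were present in every library, with a summed level of 248 to 524 CPM. CPM are counts per 1000000 counts of the library after TMM scaling (trimmed mean of M-values).

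All 57 crystallin genes had a count in at least 1 library, 49 had one in each of the 12, and 36 had more than 100 counts in each. At the low end, 18 genes had at most 50 counts in every library. Counts were not corrected for transcript length, so the levels of different genes or classes were not ranked. By the order of protein-coding genes in the RefSeq annotation of the GRCz12tu assembly, 31 of the genes form an unbroken run of neighbours. It holds crygm2c, crygmxl1, crygm2b, crygm2a, crygm2e, the 21 crygm2d genes, crygm2f, crygm5, crygm3, crygs4 and crygs3. Outside the run, the same gene order holds 4 pairs of a beta A gene beside a beta B gene. These are cryba1l2 and crybb1l2, crybb1 and cryba4, crybb1l1 and cryba1l1, and cryba1a and crybb1l3. The RefSeq symbol cryba1a was not matched to any member identifier. The crygm2d genes share a name stem and lie side by side, and their sequences were not compared here. Reads that match more than 1 of them may have been lost or assigned to the wrong copy, so their individual values are uncertain.

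The summed crystallin level was highest in DKO. It was 6047, 8685 and 7691 CPM in panx1a-/-, 5358, 8999 and 6226 CPM in panx1b-/-, 11563, 11408 and 10601 CPM in DKO, and 8106, 8526 and 8092 CPM in TL. All DKO libraries lay above all TL libraries, while both single knock-outs overlapped TL. As a share of all counts, crystallins took 0.752% ± 0.120 in panx1a-/-, 0.684% ± 0.162 in panx1b-/-, 1.12% ± 0.040 in DKO and 0.815% ± 0.062 in TL (SD, n = 3 each). In whole larvae, a change in the number of lens cells and a change in RNA per lens cell cannot be told apart.

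The structural classes followed the same order of lines. Beta A crystallins summed to 1340.2 ± 251 CPM in panx1a-/-, 1159 ± 403 in panx1b-/-, 2060.4 ± 78.9 in DKO and 1450.0 ± 94.1 in TL (SD, n = 3 each). Beta B crystallins summed to 1061 ± 194 CPM in panx1a-/-, 953 ± 381 in panx1b-/-, 1704 ± 192 in DKO and 1223 ± 175 in TL. In both classes the lowest DKO library (2009 CPM for beta A, 1494 CPM for beta B) was above the highest TL library (1545 CPM and 1416 CPM). Gamma M crystallins summed to 4882 ± 1035 CPM in panx1a-/-, 4597 ± 1133 in panx1b-/-, 7139 ± 627 in DKO and 5355 ± 123 in TL. Gamma N crystallins summed to 178 ± 43.2 CPM in panx1a-/-, 143 ± 62.3 in panx1b-/-, 269 ± 25.7 in DKO and 196 ± 26.5 in TL. These classes too were above TL in every DKO library, and in the single knock-outs all 4 of these classes overlapped TL.

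The chaperones were not above TL in DKO. Alpha crystallins summed to 12.7 ± 2.89 CPM in panx1a-/-, 8.81 ± 3.90 in panx1b-/-, 18.4 ± 3.18 in DKO and 17.9 ± 2.45 in TL. DKO overlapped TL, and the libraries of both single knock-outs lay below all TL libraries. Most of this sum was CRYAA, with a mean of 13.6 CPM over the 12 libraries. CRYAB (ENSDARG00000101380) had 0.77 CPM and CRYAB (ENSDARG00000042621) 0.12 CPM. The CRYAB genes overlapped TL in each single knock-out, so the low alpha sums there were those of CRYAA. Gamma S crystallins, which are abundant in mammalian lenses, had few counts, with at most 7 counts of any of the 4 genes in any library. Of these, crygs3 and CRYGS (ENSDARG00000041171) had 0 counts in all TL libraries.

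**Figure D1:**
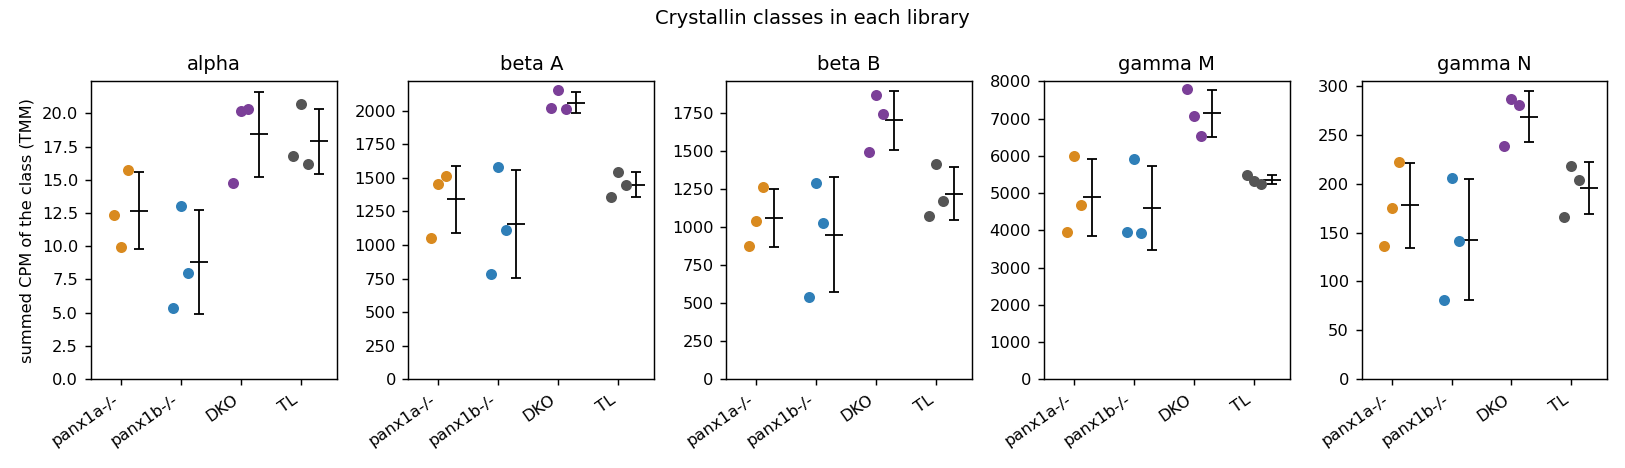
Summed CPM of 5 crystallin classes (vertical axes, linear and starting at 0) in each library of panx1a-/-, panx1b-/-, DKO and TL; points are libraries and the bars beside them the mean and SD of 3. DKO libraries sit above TL in beta A, beta B, gamma M and gamma N but overlap TL in alpha, and the panx1b-/- libraries run from 782 to 1584 CPM in beta A.

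Most crystallin counts in every line came from gamma M genes. They held 65.2% ± 4.22 of crystallin counts in panx1a-/-, 67.5% ± 5.49 in panx1b-/-, 63.7% ± 3.18 in DKO and 65.0% ± 2.63 in TL (SD, n = 3 each). Alpha genes held 0.115% to 0.205% of crystallin counts in panx1a-/-, 0.1004% to 0.145% in panx1b-/-, 0.127% to 0.192% in DKO and 0.200% to 0.243% in TL. In panx1b-/- and DKO the alpha share was thus below TL without overlap. A library that stood apart was replicate 1 of panx1b-/-, in which classes other than gamma M held 26.3% of crystallin counts, below the 30.9% to 39.3% of every other library. It had the lowest beta A, beta B, gamma N and alpha levels of the series, whereas replicate 2 of the same line was inside or above the TL range in beta A, beta B, gamma M and gamma N. Results for panx1b-/- are therefore also given without single libraries below.

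In the comparison of DKO with TL, 19 beta and gamma crystallin genes rose and none fell. Of 51 crystallin genes with a count in each library of the comparison, 43 had a positive and 8 a negative fold change, with a median log2 fold change of 0.48 against 0.00 over all 24896 genes tested. By edgeR's quasi-likelihood test (called at a Benjamini-Hochberg adjusted p under 0.05 together with p under 0.001), 19 were called higher, or 37.3%, where 2.81% of all genes were. None was called lower, where 5.28% of all genes were. No member with a negative fold change had an unadjusted p under 0.05, and DESeq2 also called 0 lower. Without overlap between the lines, 34 of the 51 (66.7%) were above TL, against 16.0% of all genes, and 0 were below, against 19.4%. Genes measured in the same pools are not independent observations, which applies to every count of genes given here.

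Among beta A crystallins, 5 of 7 were called higher in DKO. None of these 5 calls held without TL replicate 1 or without TL replicate 3. Those of cryba1b, CRYBA4 and cryba1l2 each held in 2 of 6 fits that left out 1 library. The gene cryba1b had 429, 515 and 468 CPM in DKO, against 289, 343 and 314 CPM in TL (log2 fold change 0.58, SE 0.11, adjusted p = 0.00547). CRYBA2 (ENSDARG00000041925) had 517, 441 and 434 CPM in DKO, against 306, 334 and 306 CPM in TL (0.56, SE 0.10, adjusted p = 0.00404), so both genes were without overlap. CRYBA4, CRYBA2 (ENSDARG00000030349) and cryba1l2 had log2 fold changes of 0.47, 0.49 and 0.60. Of the other two, cryba1l1 missed the cut-off on p (0.42, adjusted p = 0.0204). CRYBA1, at 14 to 44 counts in DKO and 38 to 47 in TL, had a log2 fold change of -0.41 with an SE of 0.33 (adjusted p = 0.416).

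Among beta B crystallins, crybb1l2, the neighbour of cryba1l2, was called higher. It had 519, 605 and 539.7 CPM in DKO, against 359, 424 and 372 CPM in TL (log2 fold change 0.53, SE 0.11, adjusted p = 0.00849). The call of crybb1l2 held in 2 of 6 fits that left out 1 library. With all 12 libraries in one fit, edgeR did not call it (adjusted p = 0.0989). The other genes of this class with high counts pointed the same way without passing both cut-offs. crybb1l1 had 564, 717 and 692 CPM in DKO, against 399, 555 and 446 CPM in TL (0.50, SE 0.15, adjusted p = 0.0389), and CRYBB1 had 408, 546 and 512 CPM in DKO, against 316, 436 and 355 CPM in TL (0.41, SE 0.15, adjusted p = 0.0852). crybb1l1 did not overlap between the lines, while CRYBB1 did. CRYBB2, CRYBB3 and crybb1l3 had at most 55 counts in any library and were not called.

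Among gamma M crystallins, 12 of 34 tested were called higher in DKO, and 9 of these were crygm2d genes. The gene crygm2d10 had 911, 904 and 783 CPM in DKO, against 628, 600.1 and 599 CPM in TL (log2 fold change 0.51, SE 0.10, adjusted p = 0.0061). The gene crygm2d8 had 654, 628 and 588 CPM in DKO, against 460.1, 441 and 435 CPM in TL (0.49, SE 0.09, adjusted p = 0.00471). These increases cleared the spread between replicates in the fit of DKO with TL alone, and no DKO library reached down to TL. Each of the 2 calls held in 3 of 6 fits that left out 1 library. With all 12 libraries in one fit, edgeR called neither crygm2d10 (adjusted p = 0.0638) nor crygm2d8 (adjusted p = 0.0316). The remaining 7 called crygm2d genes (crygm2d1, d3, d5, d11, d13, d14 and d20) had log2 fold changes of 0.54 to 0.69, the highest of them for crygm2d5. By contrast, crygm2d2 had 652, 493 and 479.6 CPM in DKO, against 605, 516 and 517 CPM in TL (-0.01, SE 0.13, adjusted p = 0.966), and its groups overlapped.

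The 3 other gamma M genes called higher lie near the end of the run or outside it. At lower counts, crygm2f had 16.1, 12.8 and 13.4 CPM in DKO, against 8.87, 7.12 and 7.33 CPM in TL (log2 fold change 0.87, SE 0.13, adjusted p = 0.0016). The neighbours crygmx and crygmxl2, which are not in the run, had log2 fold changes of 0.66 (SE 0.14, adjusted p = 0.00849) and 0.69 (SE 0.11, adjusted p = 0.00258). crygmxl2 had 68.6, 79.5 and 65.8 CPM in DKO, against 39.4, 49.2 and 43.8 CPM in TL. The fold changes of largest size belonged to genes with few counts that did not pass both cut-offs. These were crygm7 (1.68, adjusted p = 0.0334, with 10 to 15 counts in DKO and 1 to 6 in TL), crygm2a (1.63, adjusted p = 0.0987, 3 to 8 and 1 to 2 counts) and crygm2c (1.03, adjusted p = 0.0719, 19 to 38 and 12 to 15 counts).

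Both gamma N genes were above TL in all DKO libraries, and 1 of them was called. CRYGN (ENSDARG00000102129) had 9.30, 9.68 and 9.83 CPM in DKO, against 4.73, 5.90 and 4.91 CPM in TL (log2 fold change 0.90, SE 0.14, adjusted p = 0.00167). CRYGN (ENSDARG00000030411) had 229.7, 277 and 271 CPM in DKO, against 162, 212 and 198 CPM in TL (0.44, SE 0.12, adjusted p = 0.0316). Of the alpha crystallins, CRYAA, the alpha A chain that is largely confined to the lens in mammals, had 13.8, 19.1 and 19.5 CPM in DKO, against 16.0, 19.6 and 15.3 CPM in TL (0.05, SE 0.15, adjusted p = 0.869). CRYAB (ENSDARG00000101380), an alpha B gene, had 15 to 19 counts in DKO and 11 to 23 in TL (0.14, SE 0.35, adjusted p = 0.818). The other alpha B gene, CRYAB (ENSDARG00000042621), had at most 7 counts in any library and was not tested against TL.

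The number of calls in DKO depended on the spread estimate. The members' median SE against TL was 0.11 in DKO, 0.15 in panx1a-/- and 0.21 in panx1b-/-. With all 12 libraries in one fit, 3 genes (crygm2f, crygm2d5 and cryba1l2) were called higher than in TL. The count was 9 without TL replicate 3, 10 without TL replicate 1 and 11 without DKO replicate 2, and all 19 genes kept a positive fold change in every setting run.

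**Figure D2:**
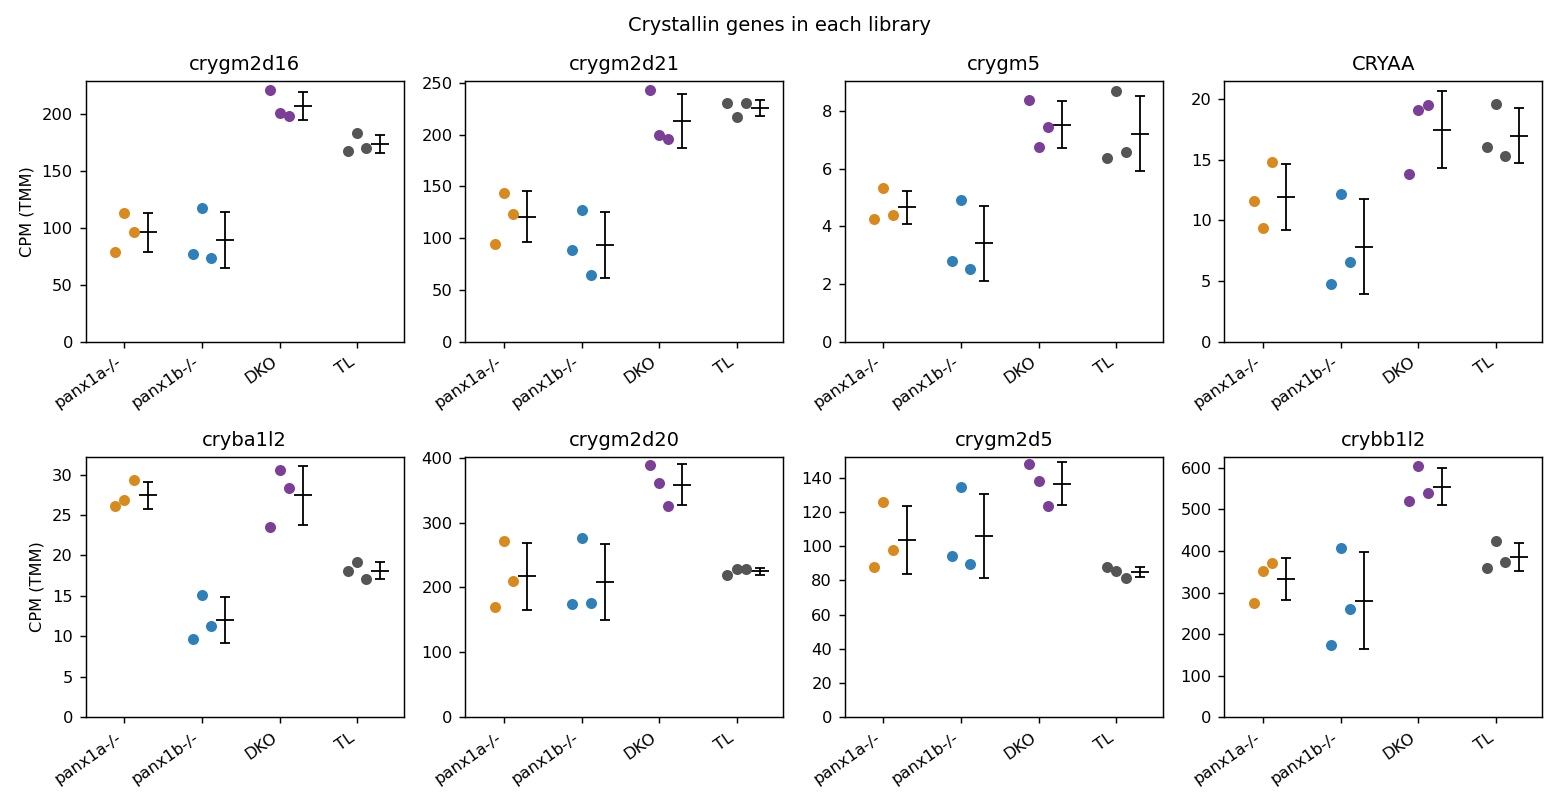
CPM (vertical axes, linear and starting at 0) of 8 crystallin genes in each library of panx1a-/-, panx1b-/-, DKO and TL; points are libraries and the bars beside them the mean and SD of 3. crygm2d16 and crygm2d21 are below TL in both single knock-outs and near or above TL in DKO, whereas crygm2d20, crygm2d5 and crybb1l2 are above TL in DKO (crygm2d20 at 326 to 388 CPM).

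In panx1a-/-, few crystallin genes differed from TL. Of 50 tested, 13 had a positive and 37 a negative fold change, with a median log2 fold change of -0.12 against -0.01 over all 24987 genes tested. edgeR called 1 higher (2.0%, with 2.29% over all genes) and 2 lower (4.0%, with 2.89% over all genes). Without overlap, 2 genes were above TL and 6 below (4.0% and 12%), where 14.3% and 14.2% of all genes were. The called genes were cryba1l2, which rose, and crygm2d16 and crygm2d21, which fell. cryba1l2 had 26.1, 26.9 and 29.3 CPM in panx1a-/-, against 18.1, 19.2 and 17.1 CPM in TL (0.60, SE 0.10, adjusted p = 0.00321), with no overlap. The call was lost without panx1a-/- replicate 3, and without panx1a-/- replicate 2 edgeR called 4 members lower (also crygm2d2 and crygm2d6). CRYBA1 had the fold change of largest size (-0.97, SE 0.24, adjusted p = 0.0308, with 20 to 26 counts in panx1a-/- and 38 to 47 in TL) and did not pass the cut-off on p.

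In panx1b-/-, the same 2 gamma M genes fell. Of 50 crystallin genes tested, 17 had a positive and 33 a negative fold change, with a median log2 fold change of -0.17 against 0.01 over all 24860 genes tested. edgeR called 2 lower, crygm2d16 and crygm2d21 (4.0%, with 3.16% over all genes), and 0 higher, where 2.80% of all genes were. With a positive fold change, 7 members had an unadjusted p under 0.05, and DESeq2 called 1 of them higher (crygm2f), as edgeR did without panx1b-/- replicate 3. Without overlap, 6 genes were above TL and 7 below (12% and 14%), where 14.9% and 14.7% of all genes were. All 7 beta A genes had a negative fold change (median -0.48) and none was called.

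The replicates of panx1b-/- spread widely, with a median SE of 0.21 over the members tested, against 0.16 over all genes. Without panx1b-/- replicate 2, edgeR called 9 members lower, and DESeq2 on all 6 libraries called 6 lower (crygm2d21, CRYAA, crygm5, crygm2d16, cryba1l2 and crygm2d2). CRYAA had 4.74, 12.2 and 6.55 CPM in panx1b-/-, against 16.0, 19.6 and 15.3 CPM in TL (log2 fold change -1.11, SE 0.27, adjusted p = 0.0234), without overlap but short of the cut-off on p. In panx1a-/- it had 11.6, 9.37 and 14.8 CPM (-0.51, SE 0.17, adjusted p = 0.085). At the low end, crygm7, crygm1 and crygm3 had the positive fold changes of largest size in panx1b-/- (1.83, 1.81 and 1.33). These rest on 13 to 17, 12 to 19 and 7 to 9 counts in panx1b-/- against 1 to 6, 3 to 6 and 2 to 5 counts in TL, and none passed both cut-offs.

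By CPM, the pair crygm2d16 and crygm2d21 was low in both single knock-outs and not in DKO, whereas its share of crygm2d counts, given below, was lower than in TL in DKO too. crygm2d16 had 78.2, 113 and 96.2 CPM in panx1a-/-, 77.1, 117 and 73.0 CPM in panx1b-/-, 221, 201 and 198 CPM in DKO, and 167, 183 and 170.2 CPM in TL. Its log2 fold change against TL was -0.86 (SE 0.12, adjusted p = 0.00161) in panx1a-/-, -0.96 (SE 0.16, adjusted p = 0.00339) in panx1b-/- and 0.25 (SE 0.09, adjusted p = 0.0691) in DKO. Both single knock-outs were thus below TL without overlap, and DKO was above TL without passing the test. crygm2d21 had 94.6, 144 and 123 CPM in panx1a-/-, 88.9, 127 and 64.0 CPM in panx1b-/-, 243, 200.1 and 196 CPM in DKO, and 231, 217 and 231 CPM in TL. Its log2 fold change was -0.91 (SE 0.13, adjusted p = 0.00182) in panx1a-/-, -1.27 (SE 0.19, adjusted p = 0.00193) in panx1b-/- and -0.09 (SE 0.10, adjusted p = 0.574) in DKO. These 3 comparisons share the TL libraries.

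The share of the 2 genes among all crygm2d counts differed between lines with little spread. Together they held 4.55% ± 0.25 of the counts of the 21 crygm2d genes in panx1a-/-, 4.03% ± 0.40 in panx1b-/-, 6.03% ± 0.19 in DKO and 7.64% ± 0.21 in TL (SD, n = 3 each). The library values did not overlap between either single knock-out and DKO, nor between any knock-out and TL. The pair was picked by its calls against TL in these same counts. Its separation of the single knock-outs from TL is therefore not a further result. Over all 21 crygm2d genes, this pair included, the median log2 fold change against TL was -0.04 in panx1a-/-, -0.11 in panx1b-/- and 0.42 in DKO, and the fold changes of the pair lay below that median in all of these lines. Another copy, crygm2d17, held 3.67% ± 0.16 in panx1a-/-, 3.71% ± 0.20 in panx1b-/-, 2.64% ± 0.058 in DKO and 2.72% ± 0.092 in TL; it was chosen after its values were seen.

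**Figure D3:**
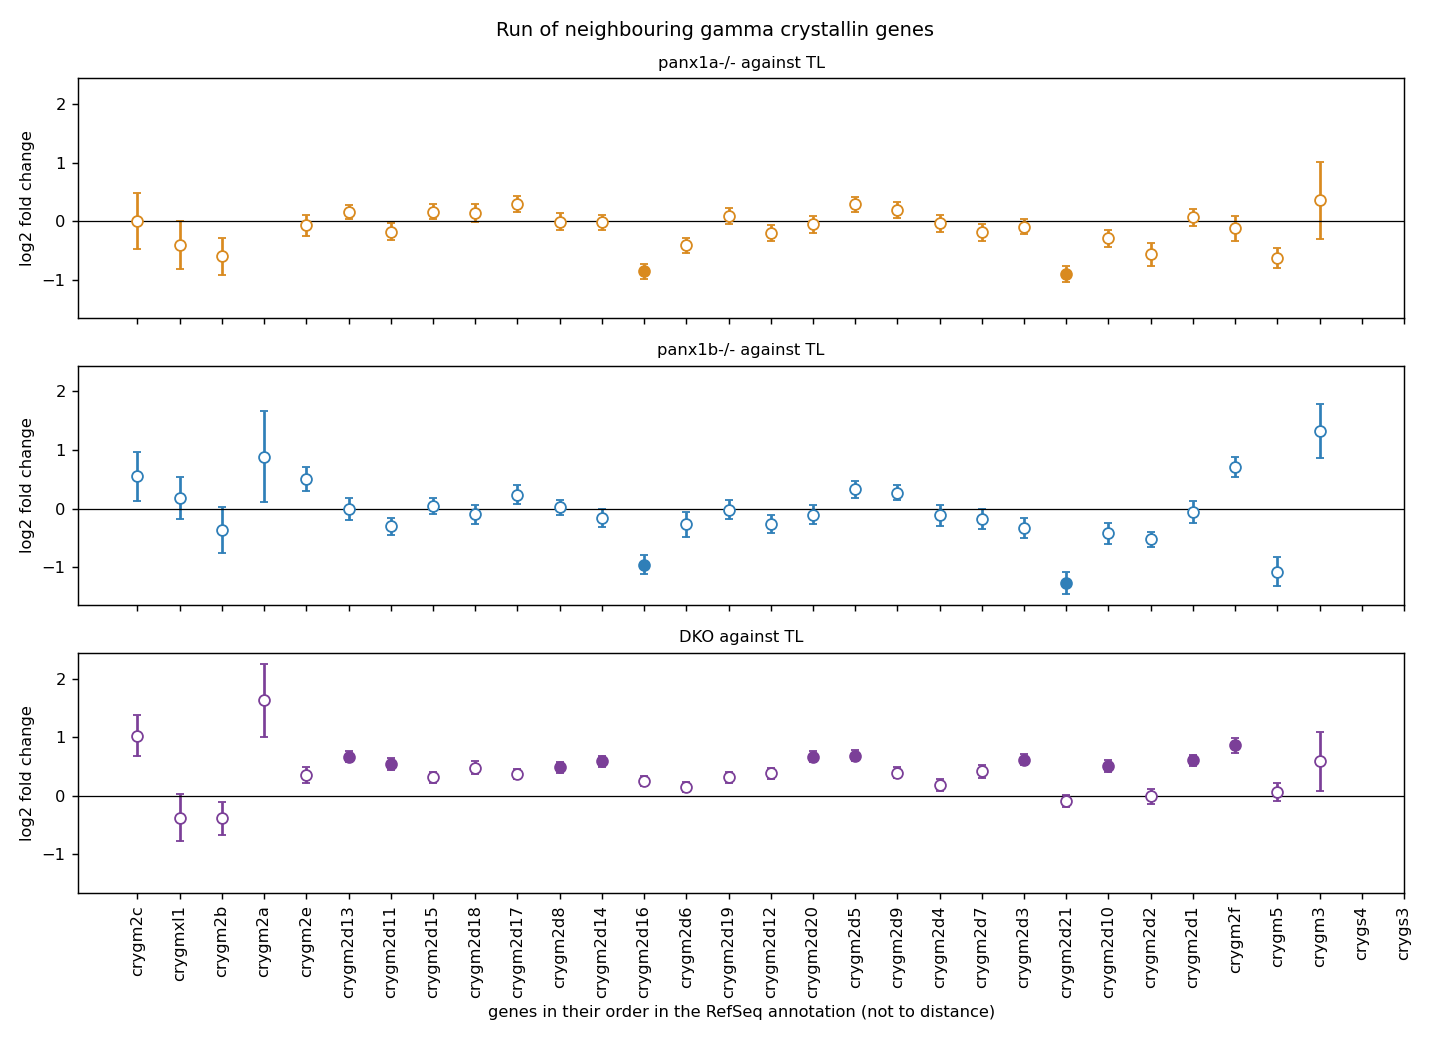
log2 fold change against TL (vertical axes) of the genes in the run of neighbouring gamma crystallin genes, in RefSeq gene order and not to distance, for panx1a-/-, panx1b-/- and DKO; bars are SE, filled points passed both cut-offs of edgeR's quasi-likelihood test and genes without a point were not tested. In the single knock-outs the filled points are crygm2d16 and crygm2d21 alone, while in DKO 10 of 29 tested genes are filled and all of these lie above 0.

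The increase in DKO was not confined to the run of neighbours. Inside it 10 of 29 tested genes were called higher than in TL (median log2 fold change 0.42), and outside it 9 of 22 (median 0.50). The share called in either part exceeded the 2.81% of all genes, though genes of the same pools are not independent observations.

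The knock-out lines were then compared with each other, which does not use TL. Comparisons with DKO, and the interaction below, rest on the same 3 DKO libraries as DKO against TL. They are therefore not independent of it. Against panx1a-/-, DKO had a positive fold change in 51 of 52 crystallin genes tested (median log2 fold change 0.58), of which edgeR called 20 higher (38.5%, with 2.58% over all genes). It called 0 lower, where 3.76% of all genes were, with 0 at an unadjusted p under 0.05 and 0 by DESeq2. Against panx1b-/-, it had a positive fold change in 43 of 52 (median 0.61), of which 12 were called higher (23.1%, with 3.84% over all genes). Again 0 were called lower, where 5.48% of all genes were, with 2 at an unadjusted p under 0.05 and 0 by DESeq2. Against panx1a-/-, the count of 20 became 9 without panx1a-/- replicate 1, 11 without DKO replicate 2, and 12 without panx1a-/- replicate 3, DKO replicate 1 or DKO replicate 3. Against panx1b-/-, the count of 12 became 5 without panx1b-/- replicate 3 or DKO replicate 2, 7 without panx1b-/- replicate 1 and 29 without panx1b-/- replicate 2.

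Against the single knock-outs, the largest called differences in DKO included crygm2d16 and crygm2d21. crygm2d16 differed by 1.11 on the log2 scale from panx1a-/- (SE 0.12, adjusted p = 0.000111) and by 1.22 from panx1b-/- (SE 0.15, adjusted p = 0.000246). crygm2d21 differed by 0.82 (SE 0.14, adjusted p = 0.00257) and 1.20 (SE 0.19, adjusted p = 0.00135). CRYAA was called higher in DKO than in panx1b-/- (1.16, SE 0.27, adjusted p = 0.0104) and had a log2 fold change of 0.55 against panx1a-/- (SE 0.17, adjusted p = 0.0492). CRYGN (ENSDARG00000102129) was called higher in DKO than in panx1a-/- (1.13, SE 0.16, adjusted p = 0.000906) and not against panx1b-/- (0.27, SE 0.26, adjusted p = 0.511).

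Between the single knock-outs, 51 crystallin genes were tested. edgeR called 1 higher in panx1a-/- than in panx1b-/- (2.0%, with 4.43% over all genes) and 2 lower (3.9%, with 4.45% over all genes). The higher one was cryba1l2, with 26.1, 26.9 and 29.3 CPM in panx1a-/- against 9.62, 15.1 and 11.3 CPM in panx1b-/- (log2 fold change 1.19, SE 0.15, adjusted p = 0.000218), joined by CRYAA without panx1b-/- replicate 2. In this gene DKO, with 23.5, 30.6 and 28.3 CPM, had a log2 fold change of 0.00 against panx1a-/- (SE 0.11, adjusted p = 0.995) and was higher than panx1b-/- (1.20, SE 0.16, adjusted p = 0.000346). Its neighbour crybb1l2 had 275, 353 and 371 CPM in panx1a-/- and 174, 406 and 261 CPM in panx1b-/- (0.25, SE 0.24, adjusted p = 0.528), with overlap. The lower ones were crygm1 (-2.07) and crygm7 (-1.83), on 3 to 5 and 4 to 5 counts in panx1a-/- against 12 to 19 and 13 to 17 counts in panx1b-/-. Neither call was made by DESeq2, which called crygm2f instead, and the call of crygm7 was lost whichever of the 6 libraries was left out. That of crygm1 was lost without panx1a-/- replicate 1, panx1a-/- replicate 3 or panx1b-/- replicate 2.

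The difference between DKO and the sum of the changes in the single knock-outs was tested as an interaction over all 12 libraries. Of 49 crystallin genes tested, edgeR called 8 higher in DKO than that sum (16.3%, with 2.56% over all genes). It called 0 lower, where 2.76% of all genes were, with 0 at an unadjusted p under 0.05 and 0 by DESeq2. The median interaction was 0.62 on the log2 scale, against 0.01 over all genes. The largest were those of crygm2d21 (2.10, SE 0.27, adjusted p = 0.000185) and crygm2d16 (2.07, SE 0.22, adjusted p = 2.59e-05). CRYAA (1.67), crygmxl2 (1.39), crygm2d10 (1.22), crygm2d3 (1.05), crygm2d11 (1.03) and crygm5 (1.77) were also called. crygm5 lies outside the rule for naming genes and had 4.27, 5.31 and 4.39 CPM in panx1a-/-, 2.78, 4.90 and 2.53 CPM in panx1b-/-, 8.38, 6.77 and 7.43 CPM in DKO, and 6.35, 8.71 and 6.57 CPM in TL. The number called was 23 without panx1b-/- replicate 2, 4 without panx1a-/- replicate 1 or panx1b-/- replicate 3, and 5 without TL replicate 1, panx1b-/- replicate 1, DKO replicate 1 or DKO replicate 2.

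A few other genes of the lens also rose in DKO. The list of lens fibre genes other than crystallins summed to 304, 345 and 378 CPM in panx1a-/-, 248, 394 and 306 CPM in panx1b-/-, 426, 524 and 487 CPM in DKO, and 357, 420.2 and 370.5 CPM in TL. In DKO 17 of its 24 genes had a positive fold change (median 0.38), and edgeR called 4 higher, where 2.81% of all genes were, and 0 lower, where 5.28% were. Called were LIM2 (ENSDARG00000015445, a membrane protein of lens fibres, 0.65) and GRIFIN (a galectin-related lens protein, 0.86). So were dnase1l1l (a nuclease of fish lens fibres, 0.66) and LCTL (ENSDARG00000036139, 0.52). The other LIM2 and LCTL genes of the list were not called in any comparison with TL, though some were above TL in DKO without overlap. LCTL (ENSDARG00000016337) had 27.5, 34.3 and 28.7 CPM in DKO, against 20.0, 24.3 and 18.2 CPM in TL. LIM2 (ENSDARG00000041295) had 4.10, 4.68 and 6.18 CPM in DKO, against 3.15, 3.14 and 3.18 CPM in TL, whereas lim2.2 overlapped TL. The list genes with the highest mean CPM, BFSP2 and epha2b, had log2 fold changes of 0.39 and -0.04 in DKO and were not called. In panx1b-/- 20 of the 24 had a negative fold change (median -0.32) and in panx1a-/- 17 (median -0.05), with 0 called in either. The 12 lens transcription factor genes had a median of 0.26 in DKO (10 positive), with 0 called in any comparison with TL. The 2 PAX6 genes, its most highly counted, had log2 fold changes of 0.29 and 0.45 in DKO, and both overlapped TL. foxe3, HSF4 and pitx3 overlapped TL in DKO as well. For pitx3 the values were 6.72, 6.16 and 7.25 CPM in DKO, against 7.30, 7.30 and 6.64 CPM in TL. The libraries are of whole larvae, so counts of this list need not come from the lens.

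Photoreceptor, pigment and epidermal genes were read beside the lens genes. The photoreceptor list summed to 1130.1, 1324 and 1553 CPM in panx1a-/-, 1295, 1561 and 1638 CPM in panx1b-/-, 1439, 1960.2 and 1809 CPM in DKO, and 1306, 1686 and 1557 CPM in TL, with overlap between every line and TL. In DKO 23 of its 32 tested genes had a positive fold change (median 0.18). Of these 32, 0 were called higher and 1 lower, where 2.81% and 5.28% of all genes were. The lower one was CNGA3 (ENSDARG00000012297), a cone channel subunit (-0.84). It was also called lower in panx1a-/- (-0.63) and in panx1b-/- (-1.27). The other CNGA3 gene of the list, ENSDARG00000070726, was not called in any comparison with TL. In panx1b-/- PDE6B (ENSDARG00000011671), a phosphodiesterase subunit of rods, was called higher (0.52), where 2.80% of all genes were. ARR3 (ENSDARG00000056511), the cone arrestin, was called lower (-0.53), where 3.16% of all genes were. The other PDE6B and ARR3 genes of the list were not called in any comparison with TL, though in panx1b-/- neither overlapped TL. ARR3 (ENSDARG00000098475) had 45.7, 54.9 and 67.7 CPM in panx1b-/-, against 77.3, 99.1 and 87.4 CPM in TL. PDE6B (ENSDARG00000000380) had 7.80, 7.71 and 9.95 CPM in panx1b-/-, against 7.57, 7.54 and 7.15 CPM in TL. GNAT2 and opn1lw2, which had the highest mean CPM of the list, had log2 fold changes of 0.32 and 0.43 in DKO and were not called in any line. Of 12 genes on the list for pigment cells and the retinal pigment epithelium, 9 had a negative and 3 a positive fold change in DKO (median -0.22). From this list 3 were called lower, where 5.28% of all genes were. These were RPE65 (ENSDARG00000007480), rlbp1b and DCT, while the other RPE65 genes of the list were not called. The related gene rlbp1a went the other way without being called. It had 18.2, 18.1 and 20.0 CPM in DKO, against 12.7, 15.3 and 13.2 CPM in TL, without overlap. In which cells rlbp1a and rlbp1b are expressed was not tested. TYRP1 (ENSDARG00000056151) and pmela, the highest of the pigment list in mean CPM, had log2 fold changes of -0.19 and 0.21 in DKO. The surface epidermis list, dominated by keratins, summed to 11538 to 15329 CPM in panx1a-/-, 13754 to 18921 CPM in panx1b-/-, 12714 to 17078 CPM in DKO and 11368 to 13076 CPM in TL. All panx1b-/- libraries thus lay above all TL libraries, and the other lines overlapped TL. Of its 6 genes, epcam, an epithelial adhesion molecule, was called lower in DKO (-0.67, adjusted p = 0.00267), and krt4 (0.29) and krt5 (0.49) were not called. The part that the amount of lens, eye or epidermal tissue per pool has in the crystallin values was not tested.

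**Figure D4:**
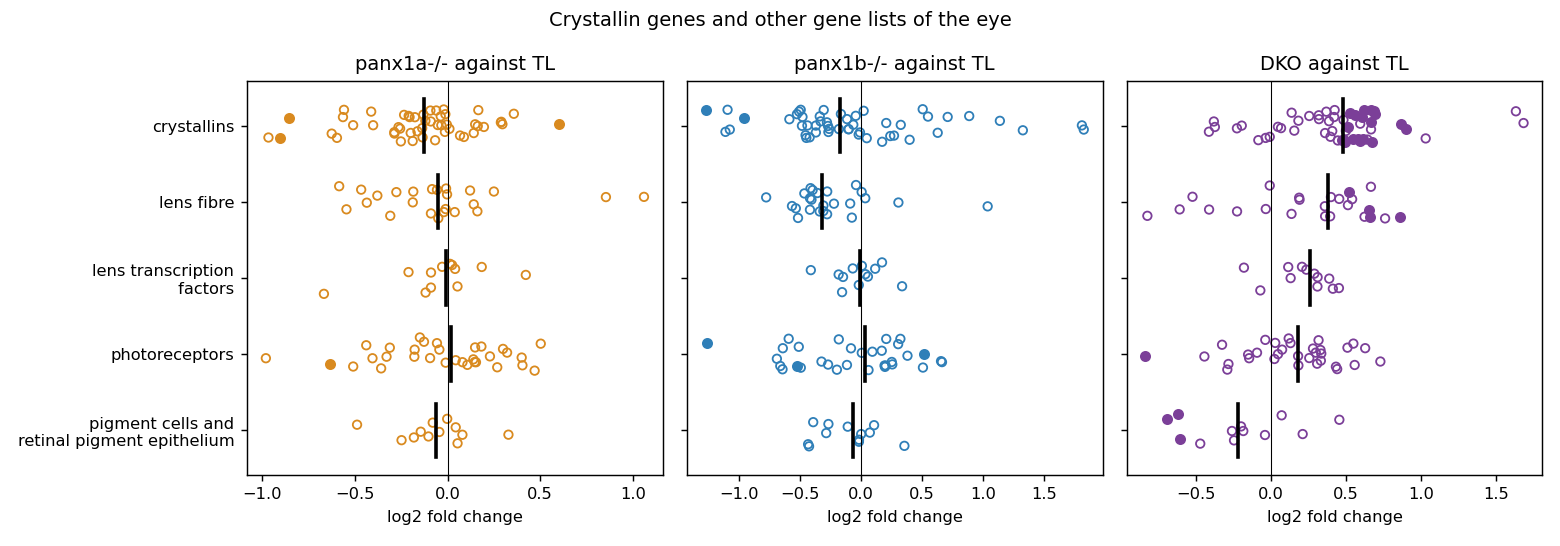
log2 fold change against TL (horizontal axes) of every tested gene of the crystallins and of 4 other eye lists, for panx1a-/-, panx1b-/- and DKO; black bars are the list medians and filled points passed both cut-offs of edgeR's quasi-likelihood test. In DKO the medians of crystallins (0.48) and lens fibre genes (0.38) lie to the right of 0 and that of the pigment list (-0.22) to the left.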

How the data were processed

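RNA-seq libraries of 12 pools of 6 dpf larvae were analysed, 3 for each of 4 lines. The authors deposited raw gene counts, 1 whole number per Ensembl gene and library, on the danRer11 build. The submitters' notes name TopHat2 2.0.11 and HTSeq 0.6.1p2, whereas the methods describe RSEM with bowtie2; reads of near-identical genes are handled differently by these tools, and which made the tables was not settled. No per-sample column was left out.

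Symbols were matched for 28223 of 31261 identifiers, and 48 of the 57 crystallin genes were found by symbol in RefSeq (GRCz12tu), used only for gene order. Fold changes came from edgeR 4.0.16 in R 4.3.3 (TMM, glmQLFit, glmQLFTest) fitted to genes counted at least once in each library used, taking only the compared lines, except for the interaction (all 12). Genes were called at an adjusted p under 0.05 and p under 0.001. SE were derived from the fold change and F. DESeq2 1.42.0, other scalings, count filters and cut-offs, all libraries in one fit, a replicate block and leaving out each library were alternatives. The fit was tested on simulated data. With 3 against 3 libraries an exact permutation test of one gene cannot go below p = 0.1, so p-values rest on a spread shared between genes, and they measure the spread between pools. Figures were drawn with matplotlib 3.10.9.

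The members, lists and tests were chosen with earlier results of these data known. Members named were those called against TL, the 3 with the highest mean CPM per class and the 3 with the largest fold change per comparison with TL; other list genes were named if called against TL or among the 2 of their list with the highest mean CPM. Genes named otherwise were chosen after their values were seen. Gene sequences were not used here.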

Additional observations from a re-analysis of the deposited data

Results flagged for a closer look

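For 8 crystallin genes the change in DKO differed from the sum of the changes in panx1a-/- and panx1b-/-, by edgeR's quasi-likelihood test of the interaction over all 12 libraries. On the log2 scale the interaction was 1.67 for CRYAA (SE 0.36, adjusted p = 0.00873), 1.22 for crygm2d10 (SE 0.26, adjusted p = 0.00739), 1.03 for crygm2d11 (SE 0.23, adjusted p = 0.0103) and 2.07 for crygm2d16 (SE 0.22, adjusted p = 2.59e-05). It was 2.10 for crygm2d21 (SE 0.27, adjusted p = 0.000185), 1.05 for crygm2d3 (SE 0.24, adjusted p = 0.0127), 1.77 for crygm5 (SE 0.30, adjusted p = 0.00159) and 1.39 for crygmxl2 (SE 0.34, adjusted p = 0.0181).

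For crygm2d16 and crygm2d21 both single knock-outs were called lower than TL, and DKO was not called. As a share of all crygm2d counts the pair was below TL in DKO as well (6.03% ± 0.19 against 7.64% ± 0.21, SD, n = 3 each). For crygm2d10, crygm2d11, crygm2d3 and crygmxl2, DKO was called higher than TL (0.51, 0.54, 0.62 and 0.69) and neither single knock-out was called. These calls came from fits of each line with TL alone, and with all 12 libraries in one fit, as for the interaction, none of these 4 genes was called higher in DKO than in TL (adjusted p = 0.0638, 0.0299, 0.0203 and 0.0541). For CRYAA and crygm5 no comparison with TL was called in these fits of each line with TL alone, whereas edgeR called both lower in panx1b-/- with all 12 libraries in one fit, and also with library size alone, no minimum count, the replicate block or panx1b-/- replicate 2 left out. Over the 20 alternative settings, the call held in 20 for crygm2d16, crygm2d21, crygm5 and crygm2d10, in 15 for CRYAA, 14 for crygm2d11, 11 for crygm2d3 and 8 for crygmxl2. These settings include adjusted p alone, under which a call could not be lost.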

How the results depend on the processing

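None of the 40 results followed for single called genes changed sign under the alternatives run, and the class levels stayed within 1 SD when scaled to library totals. Of 640 values of single genes under alternatives, 545 kept the call and 95 lost it, 16 of these with all 12 libraries in one fit. The setting of adjusted p alone only loosens the cut-off, so no call could be lost there, and its values are among those that kept the call. Counts of called crystallin genes changed most. With adjusted p alone, they were 4 lower in panx1a-/- against TL, 3 higher and 6 lower in panx1b-/- against TL, 30 higher in DKO against TL, 27 higher in DKO against panx1b-/- and 18 for the interaction. With all 12 libraries in one fit, they were 1 higher and 5 lower (CRYAA and crygm5 among them) in panx1b-/- against TL, 3 higher in DKO against TL and 8 higher in DKO against panx1a-/-. DESeq2 called 1 higher and 6 lower in panx1b-/- against TL, 1 lower in panx1a-/- against panx1b-/- and 14 for the interaction (7 shared with edgeR). Scaling to library size alone, and likewise no minimum count, gave 1 higher and 5 lower in panx1b-/- against TL and 19 higher in DKO against panx1b-/-, and no minimum count gave 1 lower in panx1a-/- against panx1b-/-.

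Leaving out 1 library at a time gave 0 to 1 higher and 2 to 4 lower in panx1a-/- against TL, 0 to 1 higher and 2 to 9 lower in panx1b-/- against TL, and 9 to 21 higher in DKO against TL. It gave 9 to 26 higher in DKO against panx1a-/-, 5 to 29 higher in DKO against panx1b-/-, 1 to 2 higher and 0 to 2 lower in panx1a-/- against panx1b-/-, and 4 to 23 for the interaction.

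Over all genes, replicate numbers gave no consistent pairing: correlations of same-numbered deviations ran between -0.09 and 0.21 over 18 pairs. In 0 of 6 comparisons were all pairs over 0.1 or did every library correlate best with its own number. For beta B, gamma N, the lens fibre list and the photoreceptor list, however, replicate 1 had the lowest sum in every line. This did not hold for alpha, beta A or gamma M. The labels do not say what the replicate numbers stand for, and a shared effect of replicate 1 was not tested. With the replicate block, calls were 1 higher and 5 lower in panx1b-/- against TL, 25 higher in DKO against panx1b-/-, 4 lower in panx1a-/- against panx1b-/- and 20 for the interaction. The causes of these changes were not tested. Genes with under 20 counts, all gamma S genes among them, could not show moderate differences at this depth.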

Other observations

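Alpha crystallins are small heat shock proteins, so the other genes of that family and the heat stress genes were read beside them. Of 9 other small heat shock protein genes, 8 had a negative fold change in DKO against TL (median -0.28), and edgeR called 2 lower, where 5.28% of all genes were. These were hspb6 (-1.96, SE 0.20, adjusted p = 0.00017) and hspb15 (-0.67, SE 0.14, adjusted p = 0.00813). In panx1b-/- hspb6 (-2.25), HSPB2 (-1.47) and HSPB8 (-0.45) were called lower and hspb9 (1.65) higher than in TL, where 3.16% and 2.80% of all genes were, and in panx1a-/- none was called. HSPB1, among the highest of these genes in mean CPM with HSPB8, had a log2 fold change of -0.28 in DKO and was not called. Of 13 heat stress genes, 12 had a negative fold change in DKO (median -0.31) and 5 were called lower, again beside 5.28% of all genes. These were hsp70l (-0.91), hsp90aa1.1 (-0.87), HSP90AA1 (-0.61), SERPINH1 (ENSDARG00000075954, -0.68) and HSPD1 (-0.52). The other SERPINH1 gene of the list was not called. In panx1b-/- hsp70l was called higher (1.36, SE 0.16, adjusted p = 0.000311), and hsp90aa1.1 and HSF2 were called lower.

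Of 2 crybg genes, which code for relatives of the beta and gamma crystallins outside the lens, crybg1b was called higher than TL in panx1a-/- (log2 fold change 0.41, SE 0.08, adjusted p = 0.0104) and in DKO (0.37, SE 0.08, adjusted p = 0.0121) by edgeR's quasi-likelihood test. In panx1b-/- its fold change was 0.14 (SE 0.10, adjusted p = 0.423). The other, crybg1a, had a log2 fold change of 0.11 in DKO and was not called in any line.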
